A study of Homo sapiens with 9 samples.

Results

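A set of 10 known target genes of the transcription factor NF-kappaB was followed across 3 isogenic lines of H3122, a human lung adenocarcinoma line. They are the chemokines CCL20, CXCL8, CXCL1, CXCL2 and CXCL3, the prostaglandin synthase PTGS2, the feedback inhibitors NFKBIA and TNFAIP3, and the secreted defence proteins CFB and LCN2. These 10 of 20046 genes named on the array were chosen by symbol, with IL8 read as CXCL8. They have 12 probes, since CXCL8 and PTGS2 have 2 each, and all 12 passed the filter that left 13769 genes tested.

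X376R cells were derived to resist X-376 and PF1066R cells to resist crizotinib (PF1066 in the labels), and Parental cells are sensitive to both of these inhibitors of the kinase ALK. All 3 lines carry the EML4-ALK E13;A20 fusion, and total RNA of each was hybridised to 3 Illumina bead arrays. Each inhibitor is represented by 1 resistant line, so traits of that line and resistance itself cannot be told apart. The labels do not say whether an inhibitor was present when the cells were lysed, nor whether a line's arrays came from separate cultures. The p-values therefore cover only the spread among these arrays, and that spread may be technical.

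NF-kappaB is a family of paired transcription factors held in the cytoplasm by IkappaB proteins. Signals from cytokine receptors and Toll-like receptors activate the IKK kinase complex, which marks IkappaB for destruction and frees the dimers to enter the nucleus. Airway epithelial cells answer such signals by secreting chemokines that draw in leukocytes, by making prostaglandins and antimicrobial proteins, and by making the inhibitors that end the response.

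Values are log2 signals after background correction and quantile normalization, and a change is a difference of line means on that scale with its standard error (SE). A change passed where limma's Benjamini-Hochberg adjusted p over all 13769 genes was under 0.05. X376R cells carried less of 6 members than Parental cells did: CFB, CCL20, PTGS2, CXCL8, LCN2 and CXCL1. No member passed as higher in X376R cells, and 4 did not pass, where 14.2% of all genes were called lower and 14% higher. PF1066R cells had a mixed pattern against Parental cells: CCL20 and CXCL1 were higher, where 9.08% of all genes were called higher. CFB, CXCL8 and LCN2 were lower, where 9.36% of all genes were called lower, and 5 members did not pass. Between the resistant lines, X376R cells had less of the same 6 members and no member was higher, where 8.1% of all genes were called lower and 7.97% higher.

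The median change of the 10 members was -0.77 for X376R minus Parental, against -0.01 over all genes tested. It was -0.05 for PF1066R minus Parental, against -0.01 over all genes. It was -0.76 for X376R minus PF1066R, against -0.001 over all genes. The comparisons share arrays, so each is described by its own values. In every difference that passed, the 3 arrays of one line all lay outside the range of the other line's 3. For CXCL1 in X376R against Parental cells the nearest arrays almost met, at 8.490 and 8.493.

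**Figure D1:**
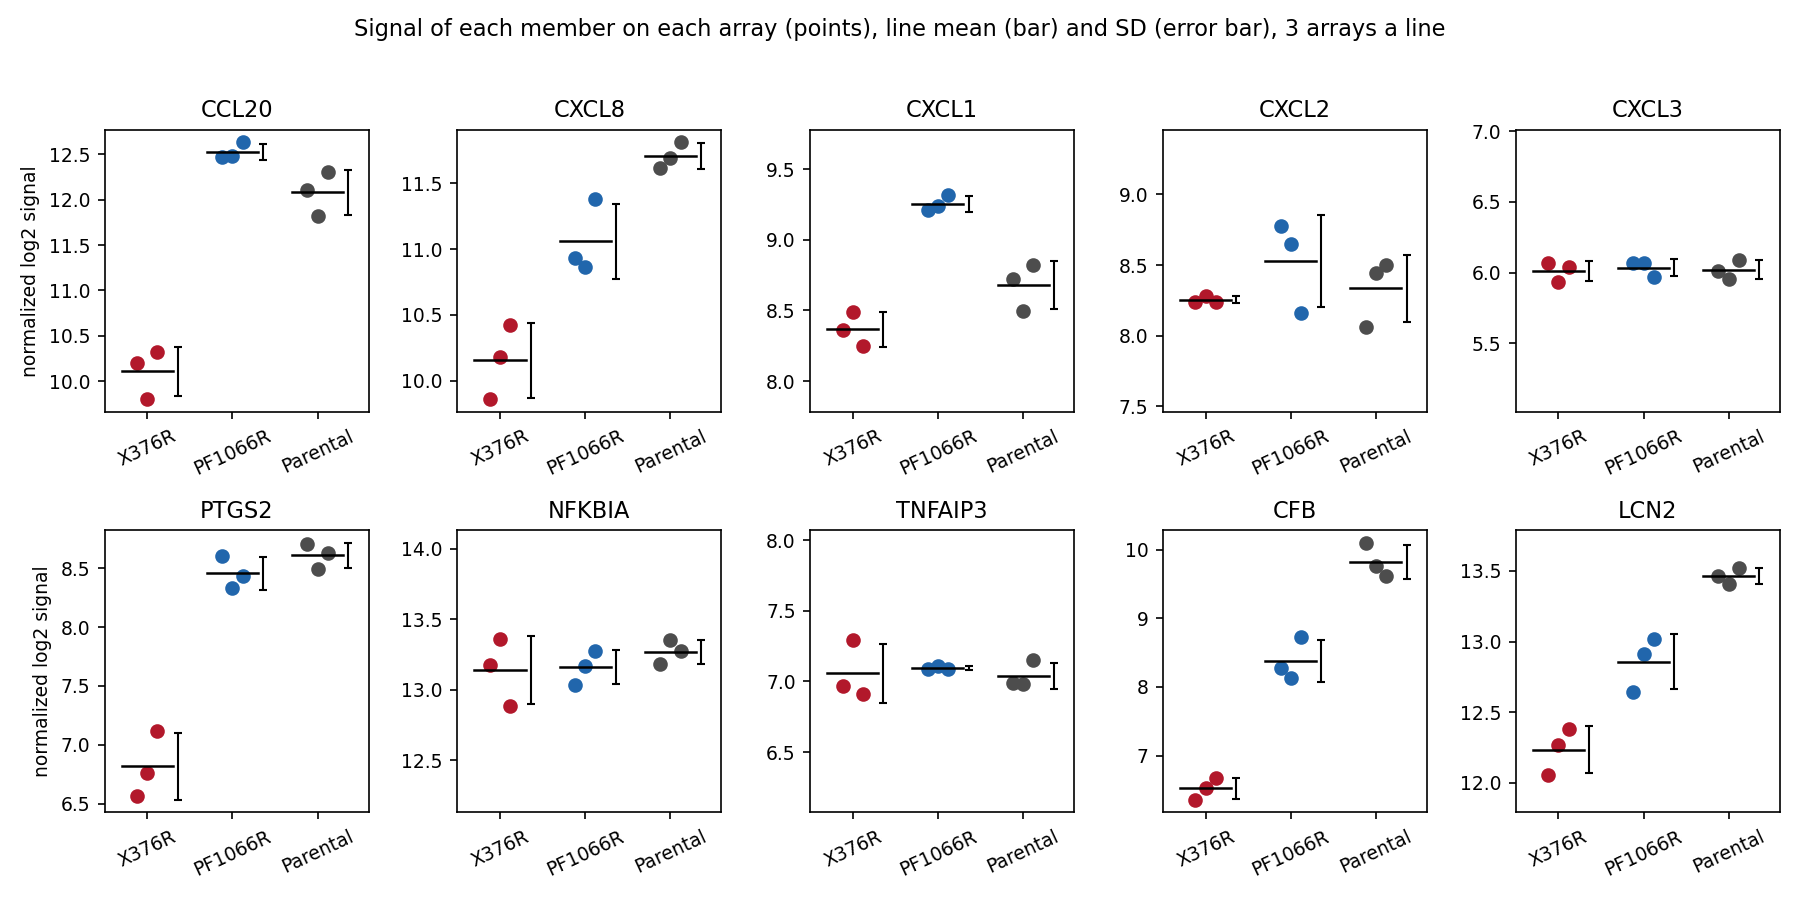
Normalized log2 signal of each of the 10 members (brighter probe where a gene has 2) on each array, as points, with the line mean as a bar and the SD as an error bar, 3 arrays a line; the vertical scale differs between panels. CFB, CXCL8 and LCN2 are lowest in X376R, higher in PF1066R and highest in Parental, while CCL20 and CXCL1 are highest in PF1066R.

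The chemokines form the largest group of members. The upstream sequences of CCL20 and CXCL8 are shown because these chemokines differed most between the lines. They are the 250 bases before the RefSeq start of each gene in GRCh38.p14, written 5′ to 3′ in the gene's direction. CCL20 lies on chromosome 2 (chr2:227813592-227813841, plus strand) and CXCL8 on chromosome 4 (chr4:73740319-73740568, plus strand). Capitals mark a match to the kappaB consensus in CCL20 and to the AP-1 motif TGANTCA in CXCL8, each searched on both strands.
CCL20: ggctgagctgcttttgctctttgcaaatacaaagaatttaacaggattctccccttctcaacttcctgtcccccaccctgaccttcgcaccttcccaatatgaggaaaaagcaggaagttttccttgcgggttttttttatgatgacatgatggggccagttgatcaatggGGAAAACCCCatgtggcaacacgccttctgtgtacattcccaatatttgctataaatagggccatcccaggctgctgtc
CXCL8: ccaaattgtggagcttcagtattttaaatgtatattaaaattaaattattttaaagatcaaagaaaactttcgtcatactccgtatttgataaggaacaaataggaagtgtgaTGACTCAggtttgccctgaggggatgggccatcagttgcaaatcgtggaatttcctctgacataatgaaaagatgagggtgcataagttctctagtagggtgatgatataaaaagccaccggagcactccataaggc

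The kappaB match of CCL20 lies 79 to 70 bases before the start on the minus strand, and the AP-1 match of CXCL8 lies 137 to 131 bases before it. The consensus was not matched in the CXCL8 window, which says only that its letters are not there. Of the 10 members' windows 8 held a kappaB match, against 9.96% of 35116 RefSeq windows of the same length. The AP-1 motif was in 2 of 10, CXCL8 and LCN2, against 6.57% of all windows. The members are known NF-kappaB targets, and a match describes letters, not binding.

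CCL20 is the ligand of the receptor CCR6, through which it attracts dendritic cells, B cells and memory T cells. It was lowest in X376R cells and highest in PF1066R cells. Its log2 signal was 10.20, 9.80 and 10.32 on the X376R arrays, 12.47, 12.48 and 12.63 on the PF1066R arrays, and 12.10, 11.82 and 12.31 on the Parental arrays. The 3 lines did not overlap. CCL20 was 3.92-fold lower in X376R than in Parental cells (-1.97 ± 0.14, adjusted p = 1.84e-08). It was 5.35-fold lower in X376R than in PF1066R cells (-2.42 ± 0.14, adjusted p = 2.23e-09). The gap of PF1066R over Parental cells was small, 1.36-fold (0.45 ± 0.14, adjusted p = 0.0383). That call did not pass in 5 of 11 alternative settings, where the change was as small as 0.01, nor in 5 of the 9 fits that left out 1 array: Parental replicate 1 or 2 or any PF1066R array, with adjusted p between 0.0685 and 0.182.

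CXCL8 attracts and activates neutrophils through CXCR1 and CXCR2. The brighter of its 2 probes read 9.86, 10.18 and 10.42 in X376R cells, 10.93, 10.86 and 11.38 in PF1066R cells, and 11.62, 11.70 and 11.81 in Parental cells. The lines formed 3 separate steps, with Parental cells at the top. CXCL8 fell 2.94-fold in X376R against Parental cells (-1.55 ± 0.15, adjusted p = 7.35e-07). It fell 1.57-fold in PF1066R against Parental cells (-0.65 ± 0.15, adjusted p = 0.00583), and was 1.87-fold lower in X376R than in PF1066R cells (-0.90 ± 0.15, adjusted p = 0.000423). The dimmer probe gave the same order, with changes of -1.89, -0.90 and -0.99 in those 3 comparisons, all of which passed.

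CXCL1, CXCL2 and CXCL3 are close paralogs that all act on the neutrophil receptor CXCR2, and their genes lie beside CXCL8 in 1 cluster on chromosome 4. Their upstream sequences are shown because all 3 share a kappaB match, while only CXCL1 passed between lines. The 80-base windows around that match, given in the gene's direction in GRCh38.p14, are at chr4:73869279-73869358 (plus strand) for CXCL1, chr4:74099229-74099308 (minus strand) for CXCL2 and chr4:74038724-74038803 (minus strand) for CXCL3. The capitals hold a match on each strand, and the pair overlaps by all but 1 letter.
CXCL1: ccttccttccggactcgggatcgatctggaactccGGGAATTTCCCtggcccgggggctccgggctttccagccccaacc
CXCL2: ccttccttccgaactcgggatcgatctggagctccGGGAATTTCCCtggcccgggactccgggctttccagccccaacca
CXCL3: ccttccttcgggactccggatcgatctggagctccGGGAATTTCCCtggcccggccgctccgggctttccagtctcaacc

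Over the 250 upstream bases CXCL1 was 81.4% identical to CXCL3 and 70.4% identical to CXCL2, and CXCL2 was 73.3% identical to CXCL3. The matches start 79, 78 and 79 bases before the starts of CXCL1, CXCL2 and CXCL3. Which copy each probe reads was not checked, since no probe sequences were used here.

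The CXCL1 probe set PF1066R cells apart from both other lines. It read 8.36, 8.49 and 8.25 in X376R cells, 9.21, 9.24 and 9.32 in PF1066R cells, and 8.72, 8.49 and 8.82 in Parental cells. The highest X376R array and the lowest Parental array nearly met, at 8.490 and 8.493. CXCL1 was 1.49-fold higher in PF1066R than in Parental cells (0.57 ± 0.11, adjusted p = 0.00184) and 1.85-fold lower in X376R than in PF1066R cells (-0.89 ± 0.11, adjusted p = 2.92e-05). Against Parental cells the X376R arrays were 1.24-fold lower (-0.32 ± 0.11), with an adjusted p of 0.0495. That last call did not pass in 6 of 11 alternative settings nor in 7 of 9 fits without 1 array (all but those without Parental replicate 2 or X376R replicate 2), with adjusted p up to 0.746 over the settings and 0.199 over the fits.

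CXCL2 read 8.24, 8.28 and 8.24 in X376R cells, 8.78, 8.65 and 8.16 in PF1066R cells, and 8.06, 8.44 and 8.50 in Parental cells. The lines overlapped, and no pair passed. Its change was -0.08 for X376R minus Parental (95% interval -0.40 to 0.24), 0.19 for PF1066R minus Parental (-0.12 to 0.51) and -0.27 for X376R minus PF1066R (-0.59 to 0.04). Without PF1066R replicate 3, the lowest PF1066R array, the last of these was -0.46 and passed (adjusted p = 0.0400). CXCL3 exceeded background on 3 of 9 arrays, 1 in each line, and its line means of 6.01, 6.04 and 6.02 in X376R, PF1066R and Parental cells give no difference to read.

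**Figure D2:**
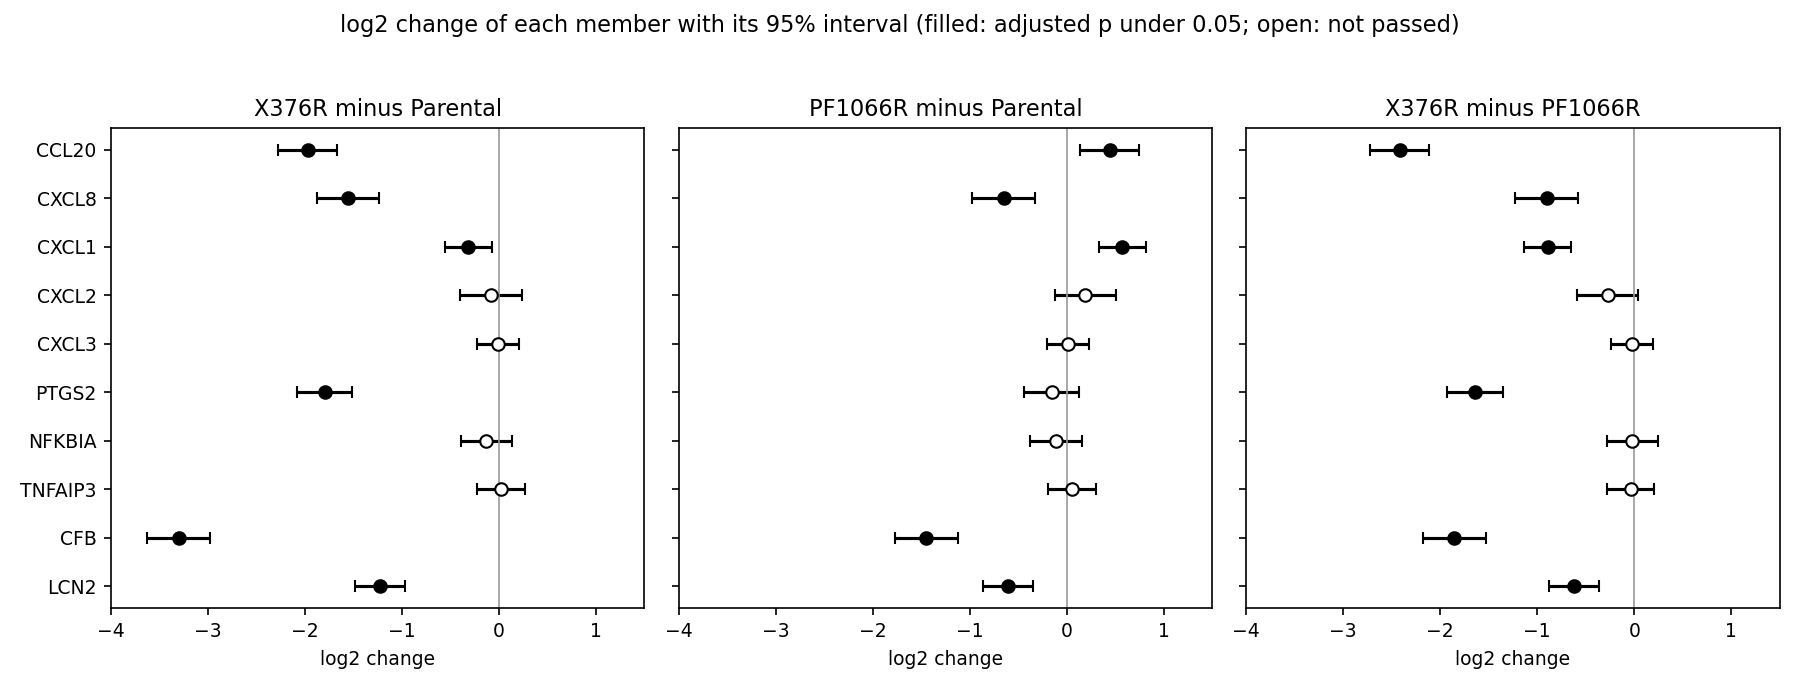
Change of each member on the log2 scale (horizontal axis) with its 95% interval in the 3 comparisons, filled where the adjusted p was under 0.05 and open where it was not. CFB has the longest displacement in X376R minus Parental (-3.30), and CCL20 and CXCL1 lie on opposite sides of 0 in the comparisons of the resistant lines with Parental.

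PTGS2, or cyclooxygenase-2, is the inducible enzyme that starts prostaglandin synthesis from arachidonic acid. It was low in X376R cells alone of the 3 lines. Its brighter probe read 6.57, 6.76 and 7.12 in X376R cells, 8.61, 8.33 and 8.43 in PF1066R cells, and 8.71, 8.50 and 8.63 in Parental cells. The PF1066R and Parental arrays overlapped, and every X376R array lay below both. PTGS2 fell 3.47-fold in X376R against Parental cells (-1.80 ± 0.13, adjusted p = 2.74e-08) and 3.12-fold against PF1066R cells (-1.64 ± 0.13, adjusted p = 1.34e-07). PF1066R minus Parental was -0.15 and did not pass (95% interval -0.44 to 0.13, adjusted p = 0.521). The dimmer probe gave -1.19 and -1.12 for the comparisons of X376R with Parental and PF1066R, both of which passed, and -0.06 for PF1066R minus Parental, which did not. It was not above background on 1 X376R array. As deposited, the brighter probe's X376R signals were 105 to 129 units, near the background limits of those arrays, 83.02 to 88.2 units. Its change from Parental cells ran between -2.24 and -1.49 over the 11 alternative settings. Neither motif was matched in the PTGS2 window, on chromosome 1.

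NFKBIA (IkappaB-alpha) binds NF-kappaB dimers in the cytoplasm and is itself a rapidly induced target, so it closes a negative feedback loop. TNFAIP3 edits ubiquitin chains on signalling adaptors and ends the response further upstream. Their upstream sequences are shown because both hold kappaB matches while neither gene's signal passed between any pair of lines. They are the 250 bases before NFKBIA at chr14:35404750-35404999 (minus strand) and an 80-base window before TNFAIP3 at chr6:137867163-137867242 (plus strand), in GRCh38.p14, with kappaB matches in capitals.
NFKBIA: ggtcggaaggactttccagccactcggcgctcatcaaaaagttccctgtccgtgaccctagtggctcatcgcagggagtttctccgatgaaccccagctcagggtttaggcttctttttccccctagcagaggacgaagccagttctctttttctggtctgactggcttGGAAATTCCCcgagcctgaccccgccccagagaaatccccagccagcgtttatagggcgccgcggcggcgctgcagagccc
TNFAIP3: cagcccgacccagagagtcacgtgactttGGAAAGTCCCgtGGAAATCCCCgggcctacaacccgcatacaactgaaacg

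The NFKBIA match starts 81 bases before the gene, and the TNFAIP3 window holds 2 matches, which start 67 and 55 bases before it. NFKBIA read 13.18, 13.36 and 12.88 in X376R cells, 13.04, 13.17 and 13.28 in PF1066R cells, and 13.18, 13.35 and 13.27 in Parental cells. The 3 lines overlapped. X376R minus Parental was -0.13 (95% interval -0.39 to 0.14, adjusted p = 0.518) and PF1066R minus Parental was -0.11 (-0.37 to 0.16, adjusted p = 0.649). The first of these passed when arrays were only centred on their medians (-0.75, adjusted p = 0.0125), a scaling that moved the median of all genes to -0.19.

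TNFAIP3 read 6.97, 7.29 and 6.91 in X376R cells, 7.09, 7.11 and 7.08 in PF1066R cells, and 6.99, 6.98 and 7.15 in Parental cells. These ranges overlapped as well. X376R minus Parental was 0.02 (95% interval -0.23 to 0.26, adjusted p = 0.941), PF1066R minus Parental was 0.06 (-0.19 to 0.30, adjusted p = 0.829) and X376R minus PF1066R was -0.04 (-0.28 to 0.21, adjusted p = 0.891).

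CFB and LCN2 are secreted defence proteins. CFB supplies the protease of the C3 convertase of the alternative complement pathway, and LCN2 starves bacteria of iron by binding their siderophores. Their upstream sequences are shown because they were lower in both resistant lines. The 250 bases before CFB are at chr6:31945845-31946094 (chromosome 6, plus strand), and an 80-base window before LCN2 is at chr9:128149243-128149322 (chromosome 9, plus strand), in GRCh38.p14, with kappaB matches in capitals.
CFB: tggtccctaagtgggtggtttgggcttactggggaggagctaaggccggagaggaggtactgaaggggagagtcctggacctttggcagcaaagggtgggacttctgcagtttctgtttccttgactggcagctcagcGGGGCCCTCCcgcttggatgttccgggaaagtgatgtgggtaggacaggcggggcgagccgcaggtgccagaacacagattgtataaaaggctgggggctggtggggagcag
LCN2: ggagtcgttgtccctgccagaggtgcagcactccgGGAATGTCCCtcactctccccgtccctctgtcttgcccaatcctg

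The kappaB matches start 112 bases before CFB and 175 bases before LCN2. Outside the LCN2 window shown, the AP-1 motif was matched 52 to 46 bases before the start.

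CFB had the largest change of any member. It read 6.36, 6.53 and 6.67 in X376R cells, 8.28, 8.13 and 8.72 in PF1066R cells, and 10.10, 9.76 and 9.61 in Parental cells. The lines formed 3 steps with no overlap. CFB was 9.86-fold lower in X376R than in Parental cells (-3.30 ± 0.15, adjusted p = 7.85e-11), 2.73-fold lower in PF1066R than in Parental cells (-1.45 ± 0.15, adjusted p = 4.84e-06), and 3.62-fold lower in X376R than in PF1066R cells (-1.85 ± 0.15, adjusted p = 1.6e-07). As deposited, its signal was 95.4 to 105 units in X376R cells, 232 to 398 in PF1066R cells and 998 to 1286 in Parental cells. The X376R signals lay just above the background limits of their arrays, 83.02 to 88.2 units, and the change ran between -3.92 and -3.03 over the 11 alternative settings.

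LCN2 followed the same order at smaller size. It read 12.06, 12.27 and 12.38 in X376R cells, 12.64, 12.91 and 13.02 in PF1066R cells, and 13.46, 13.41 and 13.52 in Parental cells. The lines did not overlap. LCN2 fell 2.34-fold in X376R against Parental cells (-1.23 ± 0.12, adjusted p = 8.75e-07) and 1.52-fold in PF1066R against Parental cells (-0.61 ± 0.12, adjusted p = 0.00192), and it was 1.54-fold lower in X376R than in PF1066R cells (-0.62 ± 0.12, adjusted p = 0.00169).

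The members thus fell into 4 orders of level. CXCL8, CFB and LCN2 were lowest in X376R cells, higher in PF1066R cells and highest in Parental cells, and each step passed. CCL20 and CXCL1 were lowest in X376R cells and highest in PF1066R cells, with Parental cells between them. PTGS2 was low in X376R cells and high in PF1066R and Parental cells, which did not differ beyond their spread. For CXCL2, CXCL3, NFKBIA and TNFAIP3 no neighbours in the order differed beyond their spread.

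The gene outside the members whose pattern was most like each one was found by Pearson's r over the 9 arrays, which fall into the 3 lines and share their scaling. For CFB it was the protease inhibitor SLPI (r = 0.996), at 6.35 ± 0.09, 8.20 ± 0.28 and 9.89 ± 0.17 (SD, n = 3 each) in X376R, PF1066R and Parental cells. For PTGS2 it was RGS17, a regulator of G-protein signalling (r = 0.993), at 7.58 ± 0.24, 9.88 ± 0.07 and 10.13 ± 0.26 in the same lines. For CCL20 it was AGR2, a protein disulfide isomerase of secretory epithelia (r = 0.987), at 9.53 ± 0.34 and 12.47 ± 0.19 in X376R and PF1066R cells. LCN2 was most like TTC9 (r = 0.986), CXCL1 most like the cation channel TRPM4 (r = 0.985) and CXCL8 most like TYW1B (r = 0.978). For the 4 members that no comparison called, the likest genes were PRPF38A for CXCL2, TAF4B for CXCL3, RAB28 for NFKBIA and GALNT13 for TNFAIP3, with r between 0.905 and 0.936. CXCL3 exceeded background on only 1 array in each line. Every gene named here has the highest r of all tested genes outside the members. How high an r unrelated genes would reach was not tested.

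The rest of the pathway was described through 7 lists with 165 of 226 written genes measured. The counts of every list are to be read beside the shares over all genes tested. In X376R against Parental cells 14% of all genes were called higher and 14.2% lower. In PF1066R against Parental cells 9.08% were called higher and 9.36% lower. Among receptors and adaptors that lead to NF-kappaB, 5 of 37 measured genes rose in X376R against Parental cells, 12 fell and 20 did not pass. In PF1066R against Parental cells 1 rose and 8 fell. TNFRSF10B, a death receptor for TRAIL, had the largest change: it read 7.28, 7.25 and 7.22 in X376R cells, 8.18, 8.36 and 8.62 in PF1066R cells, and 9.25, 9.62 and 9.81 in Parental cells. Its changes were -2.31 in X376R and -1.17 in PF1066R against Parental cells, but its other passing probe gave -0.21 and -0.18, neither of which passed. IRAK3, a brake on Toll-like receptor signalling, fell by 1.94 in X376R and by 0.89 in PF1066R against Parental cells, and its other probe fell by 0.65 in X376R cells and was -0.22 in PF1066R cells, which did not pass. TNFRSF12A, the receptor of the cytokine TWEAK, fell by 1.09 in X376R and by 1.55 in PF1066R cells, where the X376R call was lost with brightness as a covariate (adjusted p = 0.0929). The X376R arrays were spread: it read 8.65, 9.76 and 8.63 in X376R cells, 8.48, 8.64 and 8.55 in PF1066R cells, and 9.92, 10.20 and 10.21 in Parental cells. IRAK2, a kinase-like adaptor of interleukin-1 signalling, fell by 0.93 in X376R and by 1.12 in PF1066R cells.

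Among the 11 IKK and NF-kappaB subunits, 1 rose and 2 fell in X376R against Parental cells, and 2 rose and 1 fell in PF1066R against Parental cells. RELA, which carries the activating domain of the canonical dimer, was -0.20 in X376R and -0.40 in PF1066R against Parental cells, and its partner NFKB1 was -0.33 in X376R and -0.32 in PF1066R cells, none of which passed. Elsewhere these were near the threshold: RELA in PF1066R cells passed with median centring (-0.68), in the fit of 6 arrays and without X376R replicate 2 or 3, and in X376R cells with median centring (-0.61). NFKB1 passed in both lines with the authors' log2 table, and in X376R cells with median centring (-0.94) and without X376R replicate 1 (-0.49). RELB, a subunit of the non-canonical branch, fell by 0.47 in X376R and by 0.51 in PF1066R cells. Its partner NFKB2 fell by 0.53 in X376R cells on its brighter probe, a call lost with the filter of all 9 arrays and with brightness as a covariate, and was -0.16 in PF1066R cells, which did not pass, and its other probe above background did not pass in either line. Both genes exceeded background on 2 of 3 X376R arrays. Of the IKK genes, CHUK was -0.34 in X376R and -0.10 in PF1066R cells, and neither passed. The X376R change of CHUK did pass with median centring (-0.75) and without X376R replicate 2 (-0.45). It also passed in the setting that averages a gene's probes (adjusted p = 0.0448). CHUK has only 1 probe, so its value there was still -0.34 and only its adjusted p moved. IKBKB was -0.23 in X376R cells, which did not pass except with median centring (-0.47). It rose by 0.33 in PF1066R cells, though its other probe was near 0 in both lines. That rise did not pass in 4 of 11 alternative settings (adjusted p up to 0.580). It also did not pass without Parental replicate 1 or 3 or PF1066R replicate 1 or 2 (adjusted p up to 0.166). IKBKG, the regulatory subunit, rose by 0.48 in X376R cells, but was -0.09 with median centring and did not pass with brightness as a covariate, and was 0.31 in PF1066R cells, which did not pass except without Parental replicate 2.

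Beside NFKBIA and TNFAIP3, 18 further IkappaB and feedback genes were measured, of which 4 rose and 2 fell in X376R and 3 rose and 1 fell in PF1066R against Parental cells. TAX1BP1, an adaptor through which TNFAIP3 acts, read 11.15, 11.30 and 10.81 in X376R cells, 10.47, 10.60 and 10.58 in PF1066R cells, and 10.13, 10.16 and 9.92 in Parental cells. It rose by 1.02 in X376R and by 0.48 in PF1066R against Parental cells, and its other probe rose in both too. ZC3H12A, an RNase that degrades cytokine mRNAs, fell by 0.84 in X376R and by 0.41 in PF1066R cells. BCL3, an atypical IkappaB protein of the nucleus, fell by 0.74 in X376R cells and was -0.04 in PF1066R cells, which did not pass. OTULIN, a deubiquitinase of linear chains, rose by 0.55 in X376R and by 0.35 in PF1066R cells. In PF1066R cells the calls of TAX1BP1, ZC3H12A and OTULIN did not pass in 3, 2 and 3 of 11 alternative settings and in 2, 3 and 5 of 9 fits without 1 array. With median centring TAX1BP1 was 0.35 (adjusted p = 0.150) and OTULIN 0.11 (adjusted p = 0.649) in X376R against Parental cells, and neither passed; in PF1066R cells they were 0.14 and 0.09.

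**Figure D3:**
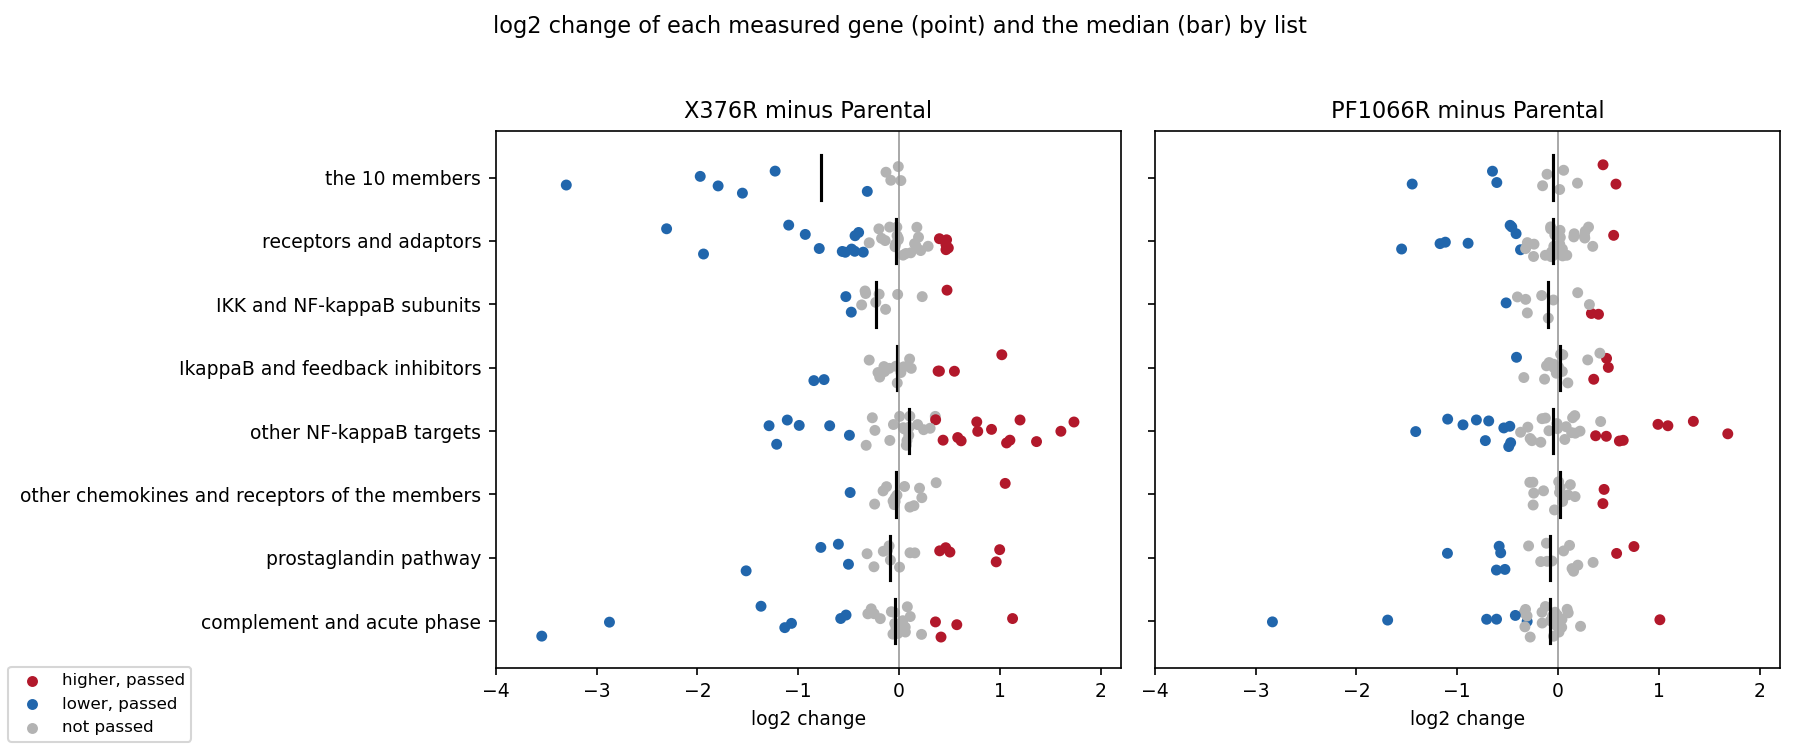
Change on the log2 scale of each measured gene (point) in the 10 members and the 7 pathway lists, with the list median as a bar, for X376R minus Parental and PF1066R minus Parental. Colours mark genes that passed as higher or lower and grey those that did not; in X376R minus Parental the members' median is -0.77 and the list of other NF-kappaB targets has its median at 0.10.

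Other NF-kappaB targets moved in both directions. Of 36 measured, 13 rose and 6 fell in X376R against Parental cells, with a median of 0.10, and 8 rose and 10 fell in PF1066R against Parental cells, with a median of -0.05. In X376R against PF1066R cells 15 rose and 3 fell, where 7.97% of all genes were called higher and 8.1% lower. EFNA1, a membrane-bound ligand of Eph receptors, read 10.49, 10.78 and 10.72 in X376R cells, 10.07, 9.77 and 10.21 in PF1066R cells, and 9.03, 8.96 and 8.78 in Parental cells. It rose by 1.74 in X376R and by 1.09 in PF1066R cells. VEGFC, a growth factor for lymphatic vessels, read 7.66, 7.62 and 7.55 in X376R cells, 6.31, 6.21 and 6.14 in PF1066R cells, and between 5.96 and 6.04 in Parental cells. Only 1 of 3 Parental arrays exceeded background, so its change of 1.61 in X376R cells, which passed, is not an exact size. In PF1066R cells its change of 0.22 did not pass, except with cyclic loess (0.39, adjusted p = 0.0134). CD83, a surface protein of mature dendritic cells, rose by 1.36 in X376R and by 1.68 in PF1066R cells, on both of its probes. TNFAIP2 fell by 1.29 in X376R and by 1.10 in PF1066R cells.

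Of 16 other chemokines and receptors of the members measured, 1 rose and 1 fell in X376R against Parental cells, and 2 rose and none fell in PF1066R against Parental cells. CCL2, which attracts monocytes, rose by 1.05 in X376R and by 0.46 in PF1066R cells: it read 7.48, 6.94 and 6.99 in X376R cells, 6.39, 6.48 and 6.75 in PF1066R cells, and 6.12, 6.08 and 6.05 in Parental cells. Every X376R array lay above every PF1066R and Parental array, and 2 of 3 Parental arrays exceeded background. The PF1066R change of CCL2 did not pass in 3 of the 10 alternative settings that gave a value, nor in 5 of 9 fits without 1 array: any Parental array or PF1066R replicate 2 or 3 (adjusted p between 0.052 and 0.135). CXCL16 fell by 0.48 in X376R cells and was -0.25 in PF1066R cells, which did not pass. Without Parental replicate 1 the X376R change was -0.29 (adjusted p = 0.162), and it also did not pass without X376R replicate 1 or 3 or with brightness as a covariate. CXCL17 rose by 0.45 in PF1066R cells and was 0.23 in X376R cells, which did not pass. Without PF1066R replicate 1 its PF1066R change was 0.28 (adjusted p = 0.179), and it also did not pass without any 1 of the Parental arrays or with median centring.

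Around PTGS2, 18 genes of prostaglandin synthesis, breakdown, transport and reception were measured. Of these, 5 rose and 4 fell in X376R and 2 rose and 5 fell in PF1066R against Parental cells. HPGD, the enzyme that inactivates prostaglandins, was lower in both resistant lines: it read 6.32, 6.15 and 6.27 in X376R cells, 6.69, 6.63 and 6.68 in PF1066R cells, and 7.82, 7.60 and 7.87 in Parental cells. Its changes were -1.52 in X376R, where 2 of 3 arrays exceeded background, and -1.10 in PF1066R against Parental cells. SLCO2A1, a prostaglandin transporter, rose by 1.00 in X376R cells and fell by 0.57 in PF1066R cells. AKR1C3, which makes prostaglandin F, rose by 0.96 in X376R and by 0.58 in PF1066R cells. PTGES2, a prostaglandin E synthase, fell by 0.78 in X376R and by 0.61 in PF1066R cells, on both of its probes. With median centring SLCO2A1 in X376R cells was 0.38 (adjusted p = 0.122), and AKR1C3 was 0.42 in X376R and 0.24 in PF1066R cells, and none of these passed.

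**Figure D4:**
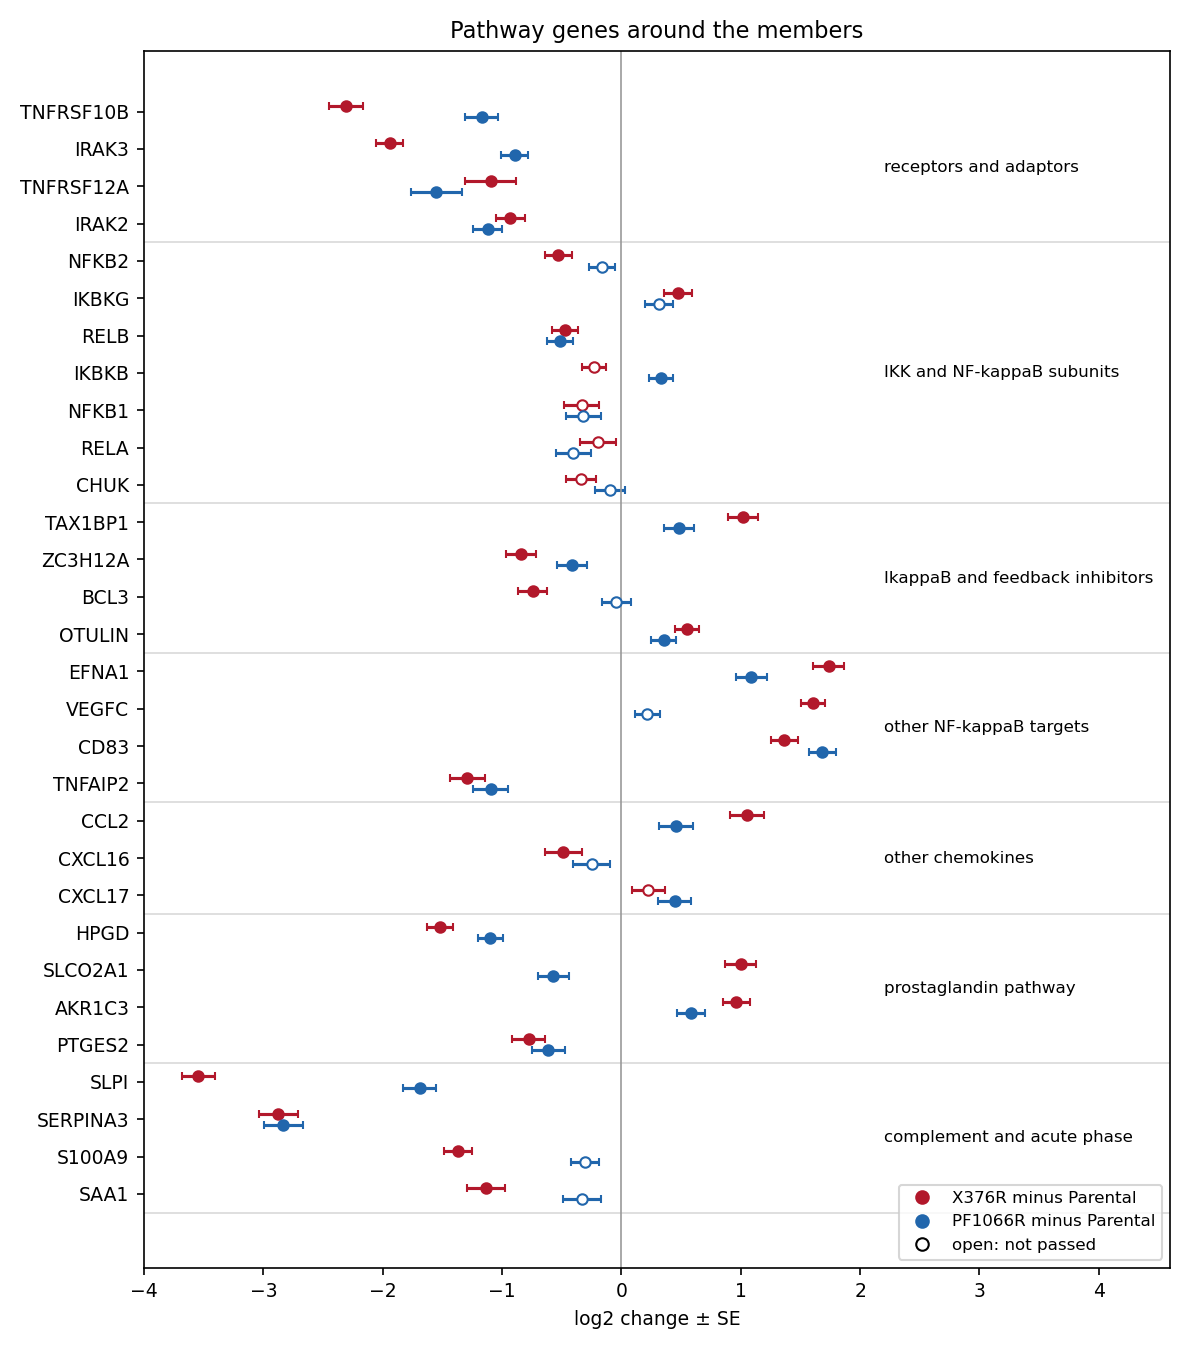
Change on the log2 scale with its SE for the named pathway genes, grouped by list, in X376R minus Parental and PF1066R minus Parental; open points did not pass. SLPI and SERPINA3 lie farthest to the left, and EFNA1 farthest to the right in X376R cells.

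Beside CFB and LCN2, 29 complement, acute-phase and antimicrobial genes were measured. In X376R against Parental cells 4 rose and 7 fell, and in PF1066R against Parental cells 1 rose and 6 fell. SLPI, a secreted inhibitor of neutrophil elastase, read 6.28, 6.31 and 6.45 in X376R cells, 8.22, 7.91 and 8.47 in PF1066R cells, and 10.06, 9.71 and 9.90 in Parental cells. The 3 lines stood apart, and SLPI fell by 3.54 in X376R and by 1.69 in PF1066R against Parental cells. On each X376R array SLPI read below CFB, which lay just above background there, so the X376R change of SLPI is not an exact size. SERPINA3, an acute-phase protease inhibitor, fell to about one level in both resistant lines, with changes of -2.87 in X376R and -2.83 in PF1066R against Parental cells, and X376R minus PF1066R was -0.04 and did not pass. S100A9, a subunit of the antimicrobial protein calprotectin, fell by 1.37 in X376R cells and was -0.31 in PF1066R cells, which did not pass except with median centring, with the authors' log2 table and without Parental replicate 1. SAA1, an acute-phase apolipoprotein with a near-identical copy in SAA2, fell by 1.13 in X376R cells and was -0.33 in PF1066R cells, which did not pass except with median centring and with brightness as a covariate.

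Array brightness moved with the lines. Mean signal over all probes was 163 to 180 units on the X376R arrays, 175 to 234 on the PF1066R arrays and 230 to 298 on the Parental arrays. With array brightness as a covariate, CFB, LCN2, CCL20, PTGS2 and CXCL8 still passed as lower in X376R than in Parental cells. CXCL1 no longer passed in that comparison. In PF1066R against Parental cells CXCL8 (-0.64, adjusted p = 0.0728) and CCL20 did not pass with this covariate. Of 8 epithelial and lung markers, 7 were above background on all 9 arrays and CLDN4 on 8. EPCAM read 11.81, 11.83 and 11.78 in X376R, PF1066R and Parental cells, CDH1 9.24, 9.71 and 10.12, NKX2-1 9.15, 8.67 and 7.95, and ALK 7.08, 9.26 and 7.27 in that order of lines. Of 11 leukocyte markers on the array, 10 were above background on at least 3 arrays: CD14, CD68, FCGR3B and HLA-DRA on all 9, and PTPRC, CD3D, LYZ, ITGAM, CSF3R and CD163 on 3. TYROBP was on 1. The mean log2 signal of the 11 was 6.32 to 6.34 in X376R, 6.37 to 6.46 in PF1066R and 6.28 to 6.37 in Parental cells. Of 6 fibroblast markers, 5 were above background on at least 3 arrays and PDGFRB on none, and their mean log2 signal was 6.40 to 6.43 in X376R, 6.21 to 6.23 in PF1066R and 6.10 to 6.16 in Parental cells. COL1A1, above background on all 9 arrays, read 7.72 in X376R and 6.88 in PF1066R cells, against 6.89 in Parental cells. Of 4 endothelial markers, PECAM1 was above background on 5 arrays, VWF on 2 and KDR on none, and CDH5, on 7, read 8.17 in X376R and 7.32 in PF1066R cells, against 5.91 in Parental cells. The part of these markers in the members' changes was not tested.

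**Figure D5:**
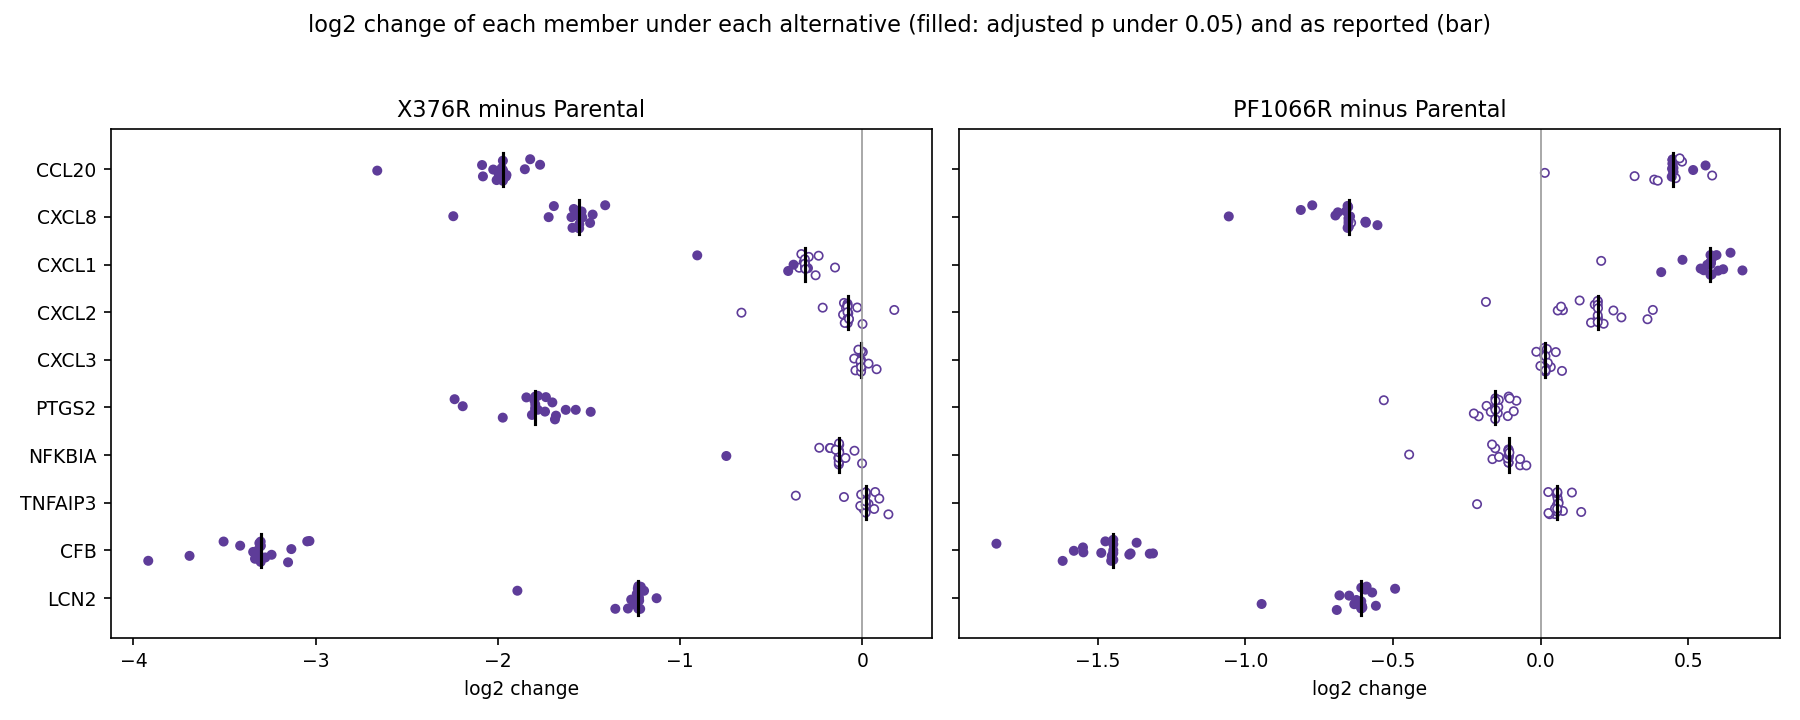
Change of each member on the log2 scale, as reported (bar) and in other fits (points), in X376R minus Parental and PF1066R minus Parental. Points are the 11 alternative settings and the fits that each left out an array, filled where the adjusted p was under 0.05. The 5 largest decreases of X376R minus Parental stay below 0 and filled throughout, while CCL20 in PF1066R minus Parental reaches 0.01.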

How the data were processed

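Total RNA was measured on Illumina bead arrays, 3 for each of 3 lines. RNA was extracted with Trizol and RNeasy columns and labelled with the MessageAmp kit, per the labels' protocols. The deposited table of intensity values holds a linear signal for each probe on each array; the scanner software is not stated. The authors' deposited log2 table, with R 2.15 in the submitters' processing notes, was used as an alternative alone, since its replicate 1 values have another distribution.

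The planned detection p was not in the table, so the planned substitute was used: a probe was above background where its signal was over that of all 92 external control probes of its array. These were taken from their ID range and knowledge of the platform, since the tables do not name them. Probes above it on at least 3 of 9 arrays were kept. That limit was 83.02 to 94.7 units, and 35.9% to 65.7% of probes exceeded it. Of 47323 probes, 1 had no value, and the platform table names 1 gene for 30113, several for 8 and none for 17202.

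Signals were corrected with normexp (offset 50), quantile normalized and log2 transformed in limma 3.58.1 (R 4.3.3). The brightest probe stood for a gene. All 9 arrays entered 1 fit with a mean for each line, moderated tests, Benjamini-Hochberg adjustment over 13769 genes and a threshold of 0.05; folds are back-transformed differences of log2 means. The SE had a median of 0.120; residual degrees of freedom were 6 and prior ones 10.6. The number of arrays limits the precision. The fit was also run on simulated data, with independent noise drawn from each gene's Parental mean and SD. That simulation held no brightness differences between arrays and no links between replicates, so it does not bear on their effects. Correlation between arrays was 0.980 to 0.989 within lines and 0.929 to 0.963 between lines.

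The members, lists and tests were chosen with earlier results of these data known. The text names all members, and from each list up to 4 genes by size of the X376R minus Parental change among those that passed in any comparison, the NF-kappaB and IKK subunits in any case, and the gene most like each member. The 11 alternatives were cyclic loess, median centring, no background correction, an offset of 16, no filter, a filter of all 9 arrays, the mean of a gene's probes, the authors' log2 table, array brightness as a covariate, a replicate block and fits of 6 arrays; each array was also left out in turn. Upstream sequences and gene starts are RefSeq's (GRCh38.p14), and all 10 members matched; coordinates are not used for probes.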

Additional observations from a re-analysis of the deposited data

Results flagged for a closer look

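CCL20 and CXCL1 stood out because the resistant lines lay on opposite sides of Parental cells: each was lower in X376R cells and higher in PF1066R cells, and the difference between the resistant lines was itself tested in the limma model. CCL20 differed by -2.42 ± 0.14 for X376R minus PF1066R (adjusted p = 2.23e-09), with all 3 X376R arrays below all 3 PF1066R arrays. CXCL1 differed by -0.89 ± 0.11 (adjusted p = 2.92e-05), again with no overlap. Both differences passed in all 11 alternative settings and in all 9 fits without 1 array. CCL20 ranged between -2.68 and -2.35 over those settings and CXCL1 between -1.11 and -0.74. Their changes against Parental cells, on which the opposite sides rest, are less certain, as given above for CCL20 in PF1066R cells and for CXCL1 in X376R cells. CXCL1 in PF1066R against Parental cells also did not pass with median centring (0.20, adjusted p = 0.553).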

How the results depend on the processing

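In X376R against Parental cells, CFB, CCL20, PTGS2, CXCL8 and LCN2 passed as lower in all 11 alternatives and all 9 fits without 1 array, as did the 6 members called in X376R against PF1066R cells. In PF1066R against Parental cells CFB and LCN2 did too. The count of members called there was 3 with median centring (0 higher and 3 lower; CCL20 was 0.01 and CXCL1 0.20) and 3 with brightness as a covariate (1 higher and 2 lower); which differences between arrays these settings remove was not separated, and the cause was not tested. Over all genes, brightness as a covariate gave 1252 calls in PF1066R and 1391 in X376R against Parental cells, where 2539 and 3875 were reported. Median centring gave 978 calls in X376R against PF1066R cells (275 higher and 703 lower), where 2213 were reported (1098 higher and 1115 lower). It set the median change of all genes at -0.12 in PF1066R and -0.19 in X376R against Parental cells, and turned the splits to 215 higher and 2227 lower in PF1066R (1250 and 1289 reported) and to 387 higher and 4205 lower in X376R cells (1926 and 1949 reported). IKBKG reversed with it, to a log2 change of -0.0864 in X376R against Parental cells. Without 1 array at a time, between 3069 and 3862 genes and 5 and 6 members were called in X376R against Parental cells, 1849 to 2817 genes and 4 to 5 members in PF1066R against Parental cells, and 1609 to 2186 genes and 6 to 7 members in X376R against PF1066R cells. CXCL3 gave no value with a filter of all 9 arrays and in 3 of these fits.

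The labels number the arrays of each line, but do not say what a number marks. Same-numbered arrays correlated between -0.048 and 0.221 in their deviations from the line means, and 5 of 9 pairs were over 0.1, among them the 3 replicate 2 pairs (0.144 to 0.221), against 3 of 18 pairs with different numbers. Pairing was to be taken only where all same-numbered pairs were over 0.1, so the numbers were not used to pair the samples. The fit with replicate number as a block gave 4167, 2886 and 2477 genes and 5, 5 and 6 members for X376R minus Parental, PF1066R minus Parental and X376R minus PF1066R, and CXCL1 in X376R against Parental cells had an adjusted p of 0.0538 there. Depth of signal limits CXCL3, on 3 of 9 arrays above background, and CFB and PTGS2 in X376R cells.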

Other observations

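S100A8 and S100A9 encode the 2 subunits of calprotectin, and they differed in direction between the resistant lines. For X376R minus PF1066R, S100A8 was higher by 1.12 ± 0.12 (adjusted p = 4.73e-06) while S100A9 fell by 1.06 (adjusted p = 5.8e-06). Against Parental cells S100A8 was -0.71 in PF1066R cells (adjusted p = 0.000615), which passed in all 11 alternative settings and all 9 fits without 1 array. In X376R against Parental cells it was 0.42 (adjusted p = 0.0172), but -0.12 with median centring. That call also did not pass with brightness as a covariate (adjusted p = 0.342). The same held without Parental replicate 1 (adjusted p = 0.0587) or X376R replicate 1 (adjusted p = 0.0982). IL6, the interleukin-6 gene, exceeded background on all 3 X376R arrays, on 1 of 3 PF1066R arrays and on no Parental array. It was at least 1.94-fold higher in X376R than in Parental cells, a bound set by the dimmest signal above background (adjusted p = 1.47e-06), where CXCL8 and CCL20 fell. S100A8 and IL6 were named after their values were seen.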
